A study of Macaca mulatta with 24 samples.

Results

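The genes described here encode receptors for neuromodulators and neuropeptides: acetylcholine, serotonin, noradrenaline, dopamine, histamine, somatostatin, the opioid peptides and nociceptin, and neuropeptide Y. The rule that picks them uses the gene symbol and no measured value, though the group was proposed with earlier results of these data known. It takes probe sets naming 1 gene whose symbol begins with CHRM, CHRN, HTR and a digit, ADRA, ADRB and a digit, DRD, HRH or SSTR, or is OPRL1, OPRM1, OPRK1, OPRD1, NPY1R, NPY2R or NPY5R. This gave 54 of the 14132 genes named on the array, represented by 84 probe sets. Of these, 55 probe sets of 40 genes were bright enough to be tested, with a mean log2 intensity at or above 5.62, the median of all probe sets.

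RNA came from 4 areas of the neocortex of rhesus monkeys (Macaca mulatta). These were M1, the primary motor cortex sampled in its forelimb region; PMd and PMv, the dorsal and ventral premotor cortex; and A46, prefrontal area 46 on the banks of the principal sulcus. Each area was dissected from the left and right hemispheres of 3 untreated, group-housed adolescents of 2.6 to 2.7 years, animals 1 and 2 male and animal 3 female, and each piece was hybridised to 1 array, giving 24 arrays. All groups come from the same 3 animals, with no genetic modification named. Values are log2 intensities averaged over both hemispheres, the replicate is the animal (n = 3 per area), and differences between areas carry limma's standard error (SE) and a Benjamini-Hochberg adjusted p over all 26383 probe sets tested, called below 0.05. The pieces hold every cell type of the cortex, so fewer cells of a type and less RNA per cell cannot be told apart.

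Most of these receptors have 7 membrane-spanning segments and act through G proteins, while the nicotinic acetylcholine receptors and the HTR3 serotonin receptors are ion channels built of 5 subunits. Many of their ligands reach the cortex in long-range axons from the basal forebrain and brainstem, or are released by local interneurons, as somatostatin, neuropeptide Y and opioid peptides are. Receptors coupled to Gq, such as CHRM1, CHRM3, HRH1 and ADRA1A, raise the excitability of neurons, whereas receptors coupled to Gi, such as the opioid and somatostatin receptors, lower it.

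The main difference among the receptors lay between primary motor and prefrontal cortex. In M1 minus A46, 15 of 55 receptor probe sets were called (27.3%), against 12.9% of all probe sets tested. Of these, 12 were lower in M1, where the background is 5.36%, and 3 were higher, where it is 7.49%. The median difference over the 55 was -0.09, against -0.01 over all probe sets tested. Counting each gene once, by its brightest probe set, 10 of 40 genes were called (25.0%). The share over all genes counted in this way was not computed. Nor was the share over probe sets naming 1 gene, and all probe sets tested include some that name none. OPRL1, HRH1, CHRM1, CHRM3, SSTR1, SSTR3 and HTR3A were lower in M1, and OPRM1, OPRK1 and ADRA1A were higher. An F test for any area difference called 7 of the 55 probe sets (12.7%), against 6.53% of all. The 6 arrays of M1 and the 6 of A46 did not overlap for 9 of the 55 (16.4%), against 8.68% of all. These 9 were the 3 probe sets of OPRL1, both of SSTR1, and 1 each of OPRM1, OPRK1, NPY5R and DRD2.

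**Figure D1:**
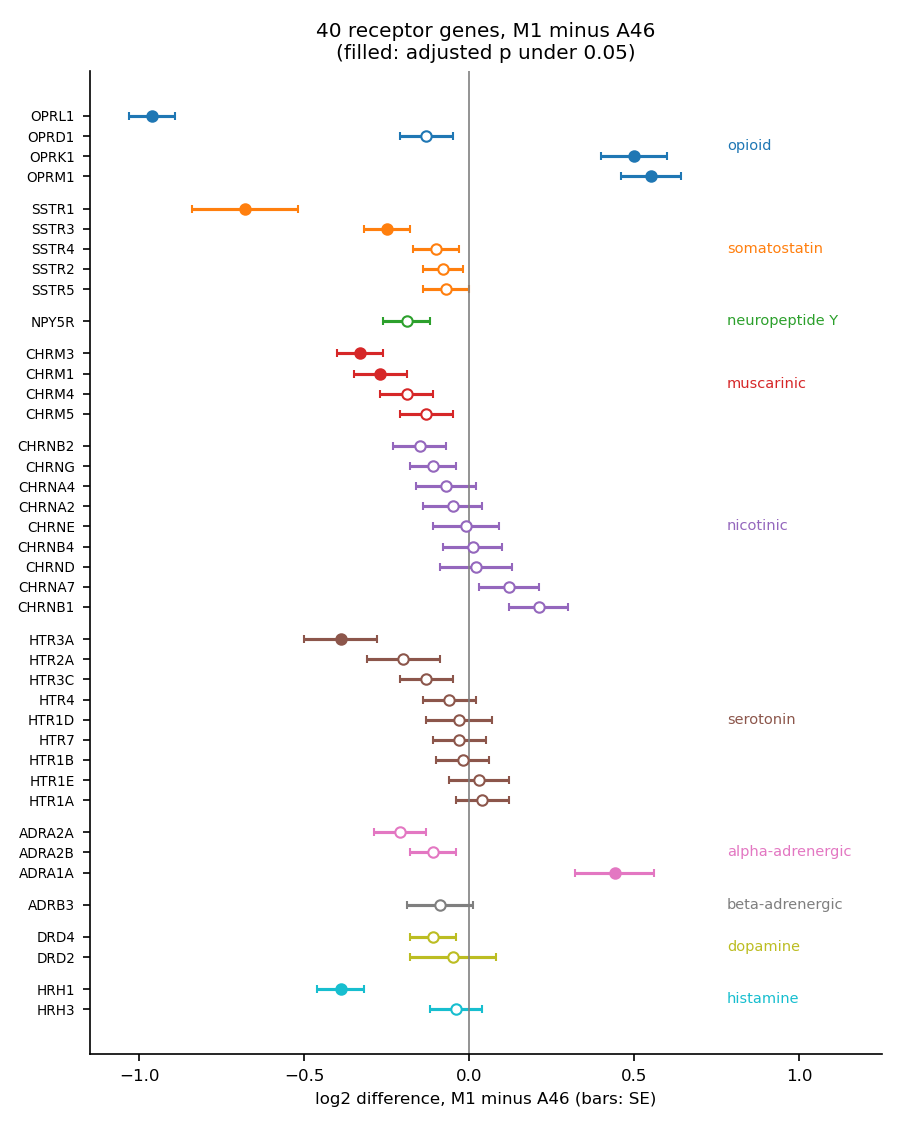
Log2 difference M1 minus A46 for the 40 receptor genes tested, each by its brightest probe set, grouped by transmitter; points are the limma estimates from 3 animals, bars their SE, and filled points have an adjusted p under 0.05. OPRL1 lies furthest to the left at -0.96, OPRM1 furthest to the right at 0.55, and the 9 nicotinic genes between -0.15 and 0.21, all open.

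The number of calls rested on the animals included. With animal 1 left out the M1 minus A46 count was 7, with animal 2 left out it was 2, and with animal 3 left out it was 16. Over all probe sets the corresponding counts were 1648, 403 and 5410, beside 3391 with all 3 animals. The fit on animals 1 and 2 alone also called CHRNB1, HTR2A and the second probe set of SSTR1. The 2 receptor probe sets called without animal 2 were both of OPRL1. All 15 differences had the same sign in each of the 3 animals. A call in a fit on these same 3 animals favours equal signs, so this is no separate support.

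Levels of cell type marker genes also differed between the areas. In M1 minus A46, 12.9% of all probe sets tested were called, 7.49% higher and 5.36% lower. Called shares of the marker lists ran from 0.0% for blood cells to 83.3% for oligodendrocytes and myelin. Those of astrocytes (12.5%) and of endothelial cells and pericytes (14.3%) were near the share of all. Of the oligodendrocyte and myelin markers tested, 5 of 6 were higher in M1 than in A46, with a median difference of 1.27 over the 6. The log2 of their summed intensities was 13.23 to 13.62 over the 3 animals in A46 and 14.21 to 14.55 in M1. Summed levels given below are of the same kind and follow the brightest genes of a list most. Of the interneuron markers, 4 of 8 were higher and 1 was lower, with summed levels of 11.93 to 12.04 in A46 and 12.14 to 12.26 in M1. Among them GAD2 gave 0.78 (adjusted p = 0.00133) and GAD1 gave -0.17 (adjusted p = 0.158). PVALB, which marks fast-spiking interneurons, differed by 1.28 (SE 0.1, adjusted p = 1.03e-05), and VIP, of another interneuron class, by -0.48 (SE 0.09, adjusted p = 0.00399). Of the excitatory neuron and layer markers, 4 of 10 were higher and 4 lower, including NEFH of thick axons at 2.24 and the upper-layer gene CUX2 at -0.69. Their summed levels were 12.69 to 12.76 in A46 and 12.92 to 13.08 in M1, while the median difference over the 10 was -0.12. NEFH, whose mean was 8.98 in A46 and 11.22 in M1, is part of this sum. The sum without NEFH was not computed. Markers of astrocytes (1 of 8 higher), microglia (2 of 9 higher), endothelial cells and pericytes (1 of 7 higher), striatal neurons (1 of 4 higher), blood cells (0 of 3 called) and meninges and choroid plexus (1 higher and 1 lower of 8) had median differences of 0.11, 0.08, 0.04, -0.01, -0.03 and -0.22. Their summed levels in A46 and M1 were 14.09 to 14.11 and 14.07 to 14.29 for astrocytes, 10.46 to 10.53 and 10.54 to 10.81 for microglia, and 10.31 to 10.34 and 10.38 to 10.43 for endothelial cells. For striatal neurons they were 11.24 to 11.47 and 11.43 to 11.5, for blood cells 8.43 to 8.54 and 8.44 to 8.45, and for meninges 10.14 to 10.53 and 10.14 to 10.19. A log2 ratio of 3' to 5' actin probes, a measure of RNA integrity, was 1.08 ± 0.11 (SD, n = 3) in A46 and 0.94 ± 0.05 in M1, and that of GAPDH was 0.93 ± 0.06 and 1.03 ± 0.06. Of the 5 oligodendrocyte, 5 interneuron and 8 excitatory markers called, 5, 2 and 3 were still called with animal 2 left out, and 5, 4 and 5 with animal 1 left out. VIP was among those lost without animal 2 (adjusted p = 0.189). The part of any of these in the receptor differences was not tested.

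The 4 opioid-family receptors split in direction between M1 and A46. OPRL1, the receptor for nociceptin, has 3 probe sets tested. The brightest (MmugDNA.28470.1.S1_at) read 11.19, 11.04 and 11.05 in A46 for animals 1, 2 and 3, and 10.21, 10.06 and 10.12 in M1. The premotor areas lay between, at 10.53, 10.52 and 10.73 in PMv and 10.56, 10.58 and 10.68 in PMd. The 3 levels A46, premotor and M1 did not overlap on any array, and PMd and PMv differed by 0.01 (adjusted p = 0.987). M1 minus A46 was -0.96 (SE 0.07, adjusted p = 4.93e-06), a 1.95-fold lower intensity in M1. OPRL1 was called in each of the 3 fits that left out 1 animal.

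The step from prefrontal to premotor cortex and the step from premotor to motor cortex were of like size for this probe set. PMd minus A46 was -0.49 (adjusted p = 0.00532), PMv minus A46 was -0.5 (adjusted p = 0.00595), and M1 minus premotor, the mean of PMd and PMv, was -0.47 (adjusted p = 0.00272). These comparisons share the A46, PMd, PMv or M1 samples and are not independent of one another. The PMd and PMv steps lost their calls without animal 1 (adjusted p = 0.075 and 0.0709), without animal 2 (0.289 and 0.478) and without the animal term in the model (0.0544 and 0.0709). The M1 step from premotor cortex lost its call without animal 2 (adjusted p = 0.177) and in the left hemispheres alone (0.0504).

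The other OPRL1 probe sets differed in how large the gradient was. The second (MmugDNA.5280.1.S1_at) read 9.26, 9.05 and 9.0 in A46, 8.35, 8.22 and 8.65 in PMv, 8.36, 8.41 and 8.64 in PMd, and 8.02, 7.97 and 8.11 in M1. Its M1 minus A46 difference was -1.07 (SE 0.1, adjusted p = 2.5e-05), and it was also called in PMd minus A46 at -0.63 (adjusted p = 0.00679), in PMv minus A46 at -0.7 (adjusted p = 0.00594) and in M1 minus premotor at -0.41 (adjusted p = 0.0249). In that order, these 3 calls were lost without animal 1 (adjusted p = 0.127, 0.0672 and 0.0621), without animal 2 (0.312, 0.472 and 0.46) and without the animal term (0.103, 0.106 and 0.186). The last was also lost with arrays centred on their medians (0.096) and in the left (0.0827) and right (0.0983) hemispheres alone. The third (MmuSTS.1990.1.S1_at) read 6.93, 6.92 and 7.02 in A46 and 6.76, 6.71 and 6.85 in M1. It was lower in M1 in all 3 animals, but its difference of -0.18 had an adjusted p of 0.118.

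OPRM1, the mu-opioid receptor and main target of morphine, ran the other way. Its log2 intensity was 7.13, 6.88 and 7.12 in A46 and 7.47, 7.56 and 7.73 in M1. The area mean rose from 7.04 ± 0.14 (SD, n = 3) in A46 to 7.59 ± 0.13 in M1, with PMd at 7.21 and PMv at 7.24. Every M1 array was above every A46 array. The PMv arrays overlapped both, and the PMd arrays overlapped those of A46 and lay below those of M1. M1 minus A46 was 0.55 (SE 0.09, 1.46-fold, adjusted p = 0.00179), and the call was lost without animal 2 (adjusted p = 0.138). M1 also exceeded the premotor mean, by 0.37 (SE 0.08, adjusted p = 0.0324). That call was lost without animal 1 (adjusted p = 0.0519), without animal 2 (0.914), without the animal term (0.355), with arrays centred on their medians (0.0845) and in the left hemispheres alone (0.303). PMd minus A46 was 0.16 (adjusted p = 0.439) and PMv minus A46 was 0.2 (adjusted p = 0.265). The other 2 OPRM1 probe sets lay below the intensity filter and gave M1 minus A46 differences of 0.03 and -0.05, neither called in a fit of all probe sets.

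OPRK1, the kappa-opioid receptor for dynorphins, had its lowest mean in prefrontal cortex, 6.53, and its highest in ventral premotor cortex, 7.06, beside 7.03 in M1. It read 6.5, 6.45 and 6.64 in A46, 6.97, 6.82 and 6.65 in PMd, 7.14, 7.24 and 6.81 in PMv, and 7.11, 7.08 and 6.9 in M1. The arrays of PMv and of M1 all lay above those of A46, whereas the PMd arrays overlapped those of A46. M1 minus A46 was 0.5 (SE 0.1, 1.42-fold, adjusted p = 0.00555), and PMv minus A46 was 0.53 (SE 0.1, adjusted p = 0.027). The first was lost without animal 1 (adjusted p = 0.0682) and without animal 2 (0.178). The second was lost without animal 1 (0.251), without animal 2 (0.963), without the animal term (0.237) and in the right hemispheres alone (0.105). PMd minus A46 was 0.28 (adjusted p = 0.184), M1 minus premotor was 0.09 (adjusted p = 0.752), and PMd minus PMv was -0.25 (unadjusted p = 0.0281, adjusted p = 0.854). OPRD1, the delta-opioid receptor, averaged 6.59 in A46, 6.6 in PMd, 6.58 in PMv and 6.46 in M1, and its M1 minus A46 difference of -0.13 (SE 0.08) was not called (adjusted p = 0.325).

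**Figure D2:**
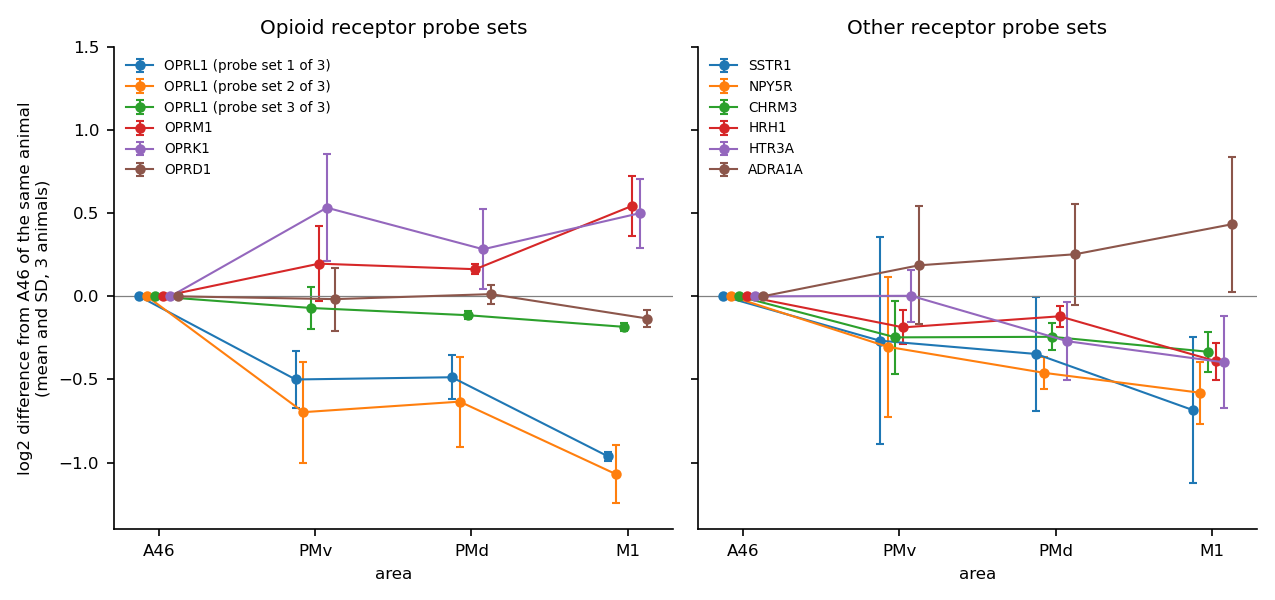
Log2 difference from A46 of the same animal in PMv, PMd and M1, with means and SDs over 3 animals, for the opioid receptor probe sets (left) and for 6 other receptor probe sets (right; the NPY5R probe set is the less bright of its pair). The brightest OPRL1 probe set stands at -0.5, -0.49 and -0.96, OPRM1 reaches 0.55 only in M1, and OPRK1 is at 0.53 in PMv, 0.28 in PMd and 0.5 in M1.

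Of the peptides that bind these receptors, the nociceptin precursor PNOC gave an M1 minus A46 difference of -0.07 (adjusted p = 0.58). PENK, the precursor of enkephalins, rose by 0.25 (SE 0.07, adjusted p = 0.0409). PENK was called without animal 1 and without animal 3, and lost its call without animal 2 (adjusted p = 0.496) and without the animal term (0.153). PENK is also the striatal neuron marker counted above as higher, and the receptor gene DRD2 is another marker in that list.

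Of the 5 somatostatin receptor genes, each by its brightest probe set, SSTR1 and SSTR3 were lower in M1 than in A46. By probe set, 2 of 7 were called, both lower (28.6%), against 12.9% of all probe sets called and 5.36% called lower. Somatostatin receptors couple to Gi and respond to the peptide of dendrite-targeting interneurons. SSTR1 read 7.37, 7.24 and 6.83 in A46, 6.57, 6.82 and 7.25 in PMv, 6.68, 6.89 and 6.83 in PMd, and 6.3, 6.47 and 6.62 in M1. The M1 arrays lay below the A46 arrays without overlap, and the PMv arrays ranged over both, from 6.34 in animal 1 to 7.4 in animal 3. M1 minus A46 was -0.68 (SE 0.16, 1.6-fold lower, adjusted p = 0.0128), made up of -1.07, -0.77 and -0.21 in animals 1, 2 and 3. The call was lost without animal 1 (difference -0.49, adjusted p = 0.102), without animal 2 (-0.64, 0.269) and in the left hemispheres alone (-0.65, 0.0549). The second SSTR1 probe set gave -0.25 (adjusted p = 0.112).

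SSTR3, a receptor found on neuronal cilia, read 7.08, 7.07 and 7.27 in A46 and 6.86, 6.82 and 6.98 in M1. The difference of -0.25 (SE 0.07, adjusted p = 0.0278) was spread over the animals at -0.22, -0.25 and -0.29, the narrowest range among the called genes after OPRL1. It sat close to the threshold, with adjusted p-values of 0.12, 0.358 and 0.0564 without animals 1, 2 and 3, 0.151 without the animal term, 0.0508 with no intensity filter, and 0.119 and 0.131 in the left and right hemispheres alone. SSTR2, a widespread cortical subtype, read 8.74, 9.06 and 8.84 in A46 and 8.64, 8.89 and 8.86 in M1, a difference of -0.08 (adjusted p = 0.468). Its other probe set, below the filter, gave 0.16 (0.35, -0.02 and 0.13 in the animals; adjusted p = 0.461 in a fit with no filter). SSTR4 gave -0.1 (adjusted p = 0.452) and SSTR5 -0.07 (adjusted p = 0.601), and the second SSTR5 probe set gave 0.03.

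Neuropeptide Y acts on Gi-coupled receptors, of which NPY5R was tested and NPY2R lay below the filter. The 2 NPY5R probe sets differed in size. MmuSTS.1973.1.S1_at read 6.33, 6.0 and 5.96 in A46, 5.56, 5.81 and 6.01 in PMv, 5.76, 5.61 and 5.54 in PMd, and 5.55, 5.45 and 5.55 in M1. The M1 arrays lay below the A46 arrays, and the difference was -0.58 (SE 0.12, 1.5-fold lower, adjusted p = 0.00693). That call was lost without animal 2 (adjusted p = 0.168) and in the left hemispheres alone (0.0561). MmugDNA.18447.1.S1_at, the brighter one, read 6.05, 6.01 and 5.94 in A46 and 5.93, 5.78 and 5.72 in M1, a difference of -0.19 (SE 0.07) that was not called (adjusted p = 0.122). Both lie near the intensity filter of 5.62, as the M1 values of the first show.

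NPY, the ligand, was higher in M1 by 0.45 (SE 0.13, adjusted p = 0.0418) in 2 of 3 animals. It read 9.06, 9.3 and 9.48 in A46 and 9.51, 10.22 and 9.45 in M1, so animal 3 showed no rise. The call was lost without animal 1 (adjusted p = 0.144), without animal 2 (0.668) and without the animal term (0.267). NPY is also one of the interneuron markers counted above.

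**Figure D3:**
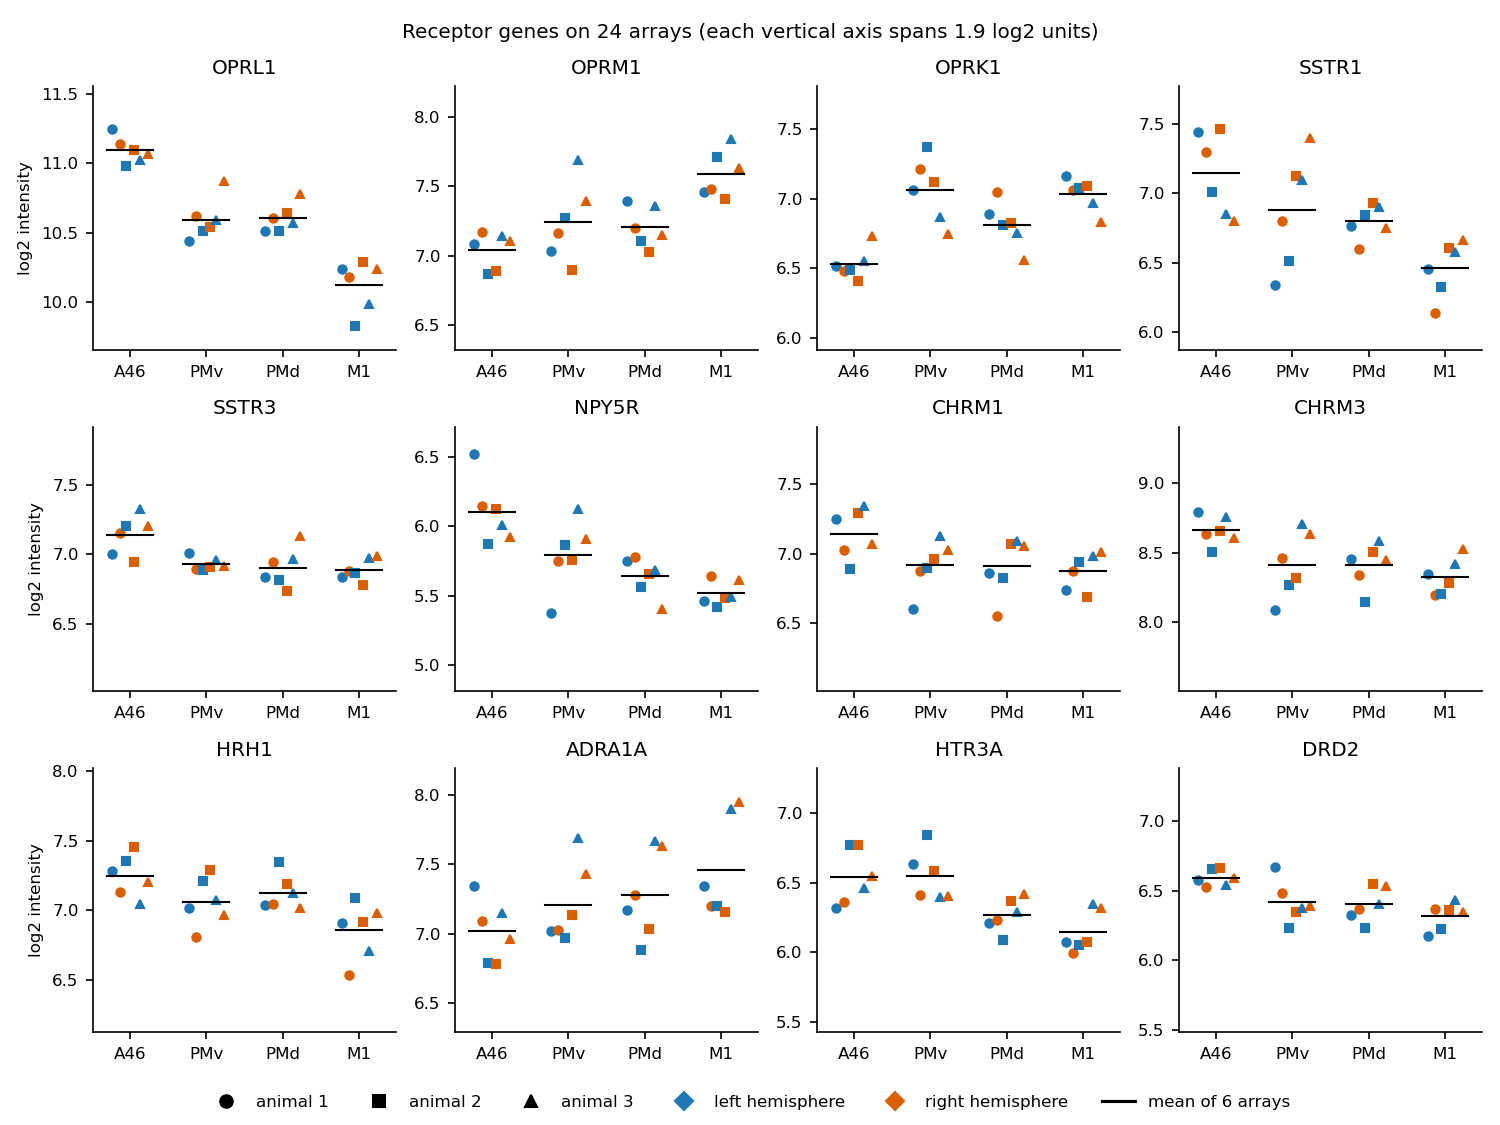
Log2 intensity of 12 receptor probe sets on all 24 arrays by area; marker shape gives the animal, colour the hemisphere, and black lines the mean of 6 arrays. Vertical axes span the same 1.9 log2 units but start at different levels, and the NPY5R and DRD2 panels show the probe set that was called, which is not the brightest of its gene. OPRL1 falls in 2 steps from A46 to M1, and the ADRA1A arrays of animal 3 stand above the rest in PMv, PMd and M1.

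Of the muscarinic receptors, which carry the slow actions of acetylcholine, CHRM1 and CHRM3 were lower in M1. In M1 minus A46, 3 of the 5 probe sets were called, all lower, against 12.9% of all probe sets called and 5.36% called lower. The 5 differences ran from -0.41 to -0.13, and CHRM4 and CHRM5 did not pass the test. CHRM3 read 8.72, 8.58 and 8.68 in A46 and 8.27, 8.24 and 8.47 in M1, with PMv at 8.41 and PMd at 8.41. Its 3 animal means in M1 lay below those of A46, while single arrays overlapped by a small margin. The difference was -0.33 (SE 0.07, 1.26-fold lower, adjusted p = 0.0109) by the brighter probe set and -0.41 (SE 0.07, adjusted p = 0.00129) by the other (MmuSTS.186.1.S1_at). In PMd minus A46 and PMv minus A46 the latter gave -0.27 and -0.28, just short of the threshold (adjusted p = 0.0614 and 0.0642).

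CHRM1, the most abundant muscarinic subtype of cortical pyramidal cells, read 7.14, 7.09 and 7.21 in A46 and 6.81, 6.82 and 7.0 in M1. Its difference was -0.27 (SE 0.08, 1.21-fold lower, adjusted p = 0.0319). The CHRM1 arrays of M1 and A46 overlapped. CHRM1 and the brighter CHRM3 probe set lost their calls without animal 1 (adjusted p = 0.128 for CHRM1 and 0.0945 for CHRM3), without animal 2 (0.368 and 0.276), without the animal term (0.236 and 0.132), with arrays centred on their medians (0.0825 and 0.0573) and in the left hemispheres alone (0.264 and 0.108). The other CHRM3 probe set lost its call without animal 2 (adjusted p = 0.138) and without the animal term (0.112), and was called under the other alternatives run. CHRM1 was also lost in the right hemispheres alone (0.165) and with no intensity filter (0.0521). CHRM4, a Gi-coupled subtype, read 5.79, 5.87 and 5.89 in A46 and 5.65, 5.59 and 5.75 in M1, a difference of -0.19 (adjusted p = 0.144). CHRM5 gave -0.13 (adjusted p = 0.38).

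None of the 12 nicotinic probe sets tested was called in M1 minus A46 by limma, with 1 at an unadjusted p under 0.05, and their differences ran from -0.15 to 0.21 around a median of -0.02. CHRNB1, a subunit of the muscle-type receptor, had the smallest F test p of the class. It read 6.76, 6.75 and 6.88 in A46, 7.19, 7.08 and 6.8 in PMv, 7.11, 6.95 and 6.88 in PMd, and 7.19, 6.97 and 6.84 in M1. Animals 1 and 2 were higher in the 3 motor areas than in A46 and animal 3 was not, and M1 minus A46 was 0.21 (SE 0.09, adjusted p = 0.169). CHRNA7, which forms the homomeric, calcium-permeable receptor, had 4 probe sets with differences of 0.12, 0.05, -0.02 and -0.11. The brightest read 8.92, 8.87 and 8.79 in A46 and 8.89, 9.02 and 9.01 in M1. The main high-affinity receptor of cortex joins CHRNA4 and CHRNB2. CHRNB2 gave -0.15 (SE 0.08, adjusted p = 0.275) and the brighter CHRNA4 probe set -0.07 (SE 0.09, adjusted p = 0.736). The remaining genes tested, CHRNA2, CHRNB4, CHRND, CHRNE and CHRNG, lay between -0.11 and 0.02.

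Below the filter were 7 nicotinic genes: CHRNA1, CHRNA3, CHRNA5, CHRNA6, CHRNA9, CHRNA10 and CHRNB3. A fit of all probe sets with no filter called 5.97% of them in M1 minus A46. It called 4 of the 29 receptor probe sets that lay below the filter, of CHRNA1, CHRNA4, HTR3A and NPY2R. The 5.97% covers bright and dim probe sets alike, and the share over those below the filter alone was not computed. CHRNA1, the ligand-binding subunit of the muscle receptor, read 4.66, 5.1 and 5.24 in A46 and 5.22, 5.27 and 6.9 in M1. Animal 3 stood far above the other two in M1, and the difference of 0.8 (SE 0.19, adjusted p = 0.0207) was made up of 0.56, 0.17 and 1.66. The dimmer CHRNA4 probe set read 5.83, 5.79 and 6.08 in A46 and 5.44, 5.29 and 5.71 in M1, a difference of -0.42 (SE 0.09, adjusted p = 0.00881), beside -0.07 by the brighter one. NPY2R read 5.13, 5.26 and 5.31 in A46 and 4.83, 4.79 and 5.07 in M1, a difference of -0.34 (SE 0.09, adjusted p = 0.0404). The HTR3A probe set is described with the serotonin receptors.

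Histamine acts in cortex through HRH1, which excites, and HRH3, which inhibits release. HRH1 read 7.21, 7.41 and 7.12 in A46, and 6.72, 7.0 and 6.85 in M1, with premotor means of 7.06 in PMv and 7.13 in PMd. The 3 animal means of M1 lay below those of A46, and single arrays overlapped. The difference was -0.39 (SE 0.07, 1.31-fold lower, adjusted p = 0.00194), and the second HRH1 probe set gave -0.34 (SE 0.09, adjusted p = 0.0276), nearly all of it in animals 1 and 2 (-0.46 and -0.54, against -0.03 in animal 3). M1 minus premotor was -0.24 (SE 0.06) and missed the threshold (adjusted p = 0.0528). The second probe set lost its call without animal 1 (adjusted p = 0.217), without animal 2 (0.509), without the animal term (0.334), with arrays centred on their medians (0.0615) and in the left hemispheres alone (0.144). The M1 minus A46 call of the brighter probe set was lost without animal 2 (adjusted p = 0.132), without the animal term (0.0884) and in the left hemispheres alone (0.0786). The 3 HRH3 probe sets gave -0.04, 0.06 and 0.15, none called, and HRH2, below the filter, gave -0.18.

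Among the noradrenaline receptors, ADRA1A rose from prefrontal to motor cortex, and the rise differed among the animals. It read 7.22, 6.79 and 7.06 in A46, 7.02, 7.05 and 7.56 in PMv, 7.22, 6.96 and 7.65 in PMd, and 7.27, 7.18 and 7.92 in M1. Animal 3 was the highest in PMv, PMd and M1 but not in A46, and the arrays of M1 and A46 overlapped. M1 minus A46 was 0.44 (SE 0.12, 1.36-fold, adjusted p = 0.0306), with 0.06, 0.39 and 0.87 in animals 1, 2 and 3. Without animal 3 the difference was 0.22 (adjusted p = 0.149), and without animal 2 it was 0.46 (adjusted p = 0.305). The call was also lost without the animal term (adjusted p = 0.379), with arrays centred on their medians (0.0535) and in the left hemispheres alone (0.144). The other 2 ADRA1A probe sets were below the filter, at -0.02 and -0.04.

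ADRA2A, the Gi-coupled receptor that guanfacine acts on in prefrontal cortex, read 6.93, 6.92 and 7.09 in A46 and 6.56, 6.9 and 6.84 in M1, a difference of -0.21 (SE 0.08, adjusted p = 0.113). ADRA2B gave -0.11 (adjusted p = 0.361). The beta receptor ADRB3 had 2 tested probe sets of opposite sign, -0.09 (adjusted p = 0.675) and 0.15 (adjusted p = 0.307). The second of these had the smaller F test p and read 6.14, 6.31 and 6.28 in A46 and 6.33, 6.46 and 6.41 in M1.

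**Figure D4:**
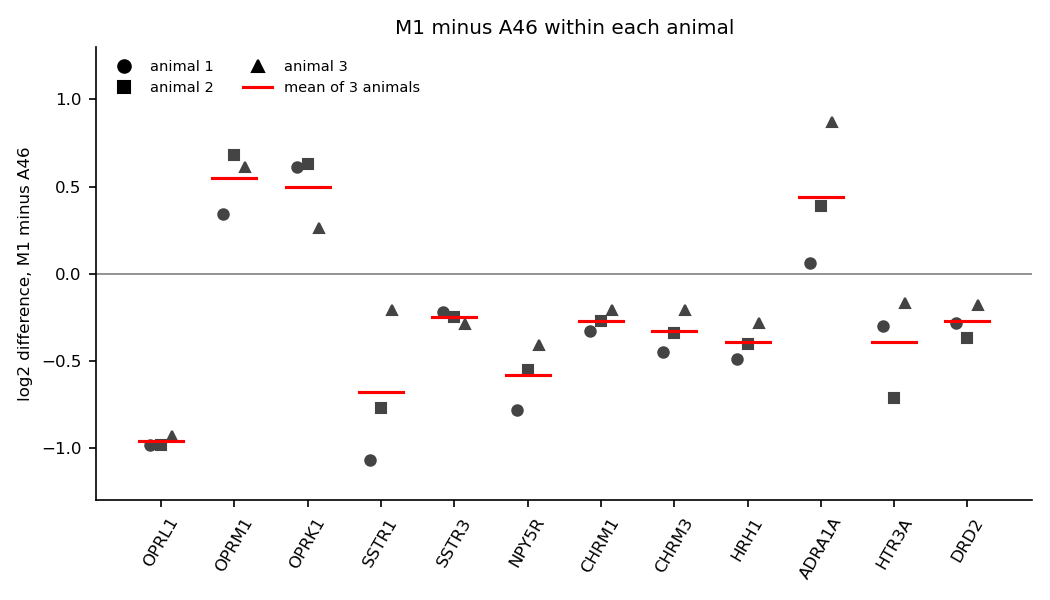
Log2 difference M1 minus A46 within each of the 3 animals for the 12 receptor genes with a called probe set; red bars are means over animals, and NPY5R and DRD2 are shown by their called probe set. The OPRL1 points lie within -0.98 to -0.93, while those of ADRA1A run from 0.06 to 0.87 and those of SSTR1 from -1.07 to -0.21.

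Serotonin receptors have 14 genes here, of which 9 were tested. In M1 minus A46 1 of the 9 was called (11.1%), near the 12.9% of all probe sets. HTR3A, the channel subunit found on a class of superficial interneurons, read 6.34, 6.77 and 6.51 in A46, 6.52, 6.71 and 6.4 in PMv, 6.22, 6.23 and 6.36 in PMd, and 6.04, 6.06 and 6.33 in M1. PMv minus A46 was 0.01, and the lower means were those of PMd and M1. PMd minus PMv was -0.28 (unadjusted p = 0.0238, adjusted p = 0.854). M1 minus A46 was -0.39 (SE 0.11, 1.31-fold lower, adjusted p = 0.0304), with -0.3, -0.71 and -0.17 in animals 1, 2 and 3. Without animal 2 the difference was -0.24 (adjusted p = 0.521), and the call was also lost without animal 1 (0.093), without the animal term (0.112) and in the left hemispheres alone (0.2). The second HTR3A probe set lay just under the filter and gave -0.41 (SE 0.11, adjusted p = 0.0452) in the fit with no filter.

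The other serotonin receptors tested stayed within a narrow range. The Gi-coupled HTR1A, HTR1B, HTR1D and HTR1E gave 0.04, -0.02, -0.03 and 0.03. HTR4 and HTR7, which couple to Gs, gave -0.06 and -0.03, and HTR3C gave -0.13. HTR2A, the Gq-coupled target of hallucinogens, read 8.16, 8.03 and 7.98 in A46 and 7.76, 7.69 and 8.12 in M1. The differences were -0.4 and -0.34 in animals 1 and 2 and 0.14 in animal 3, with a mean of -0.2 (SE 0.11, adjusted p = 0.28). HTR1F, HTR2B, HTR3B, HTR3D and HTR3E were below the filter, and of these HTR1F gave 0.22 (SE 0.07, adjusted p = 0.092 in the fit with no filter).

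The dopamine receptors described here, DRD2 and DRD4, are both Gi-coupled. The 3 DRD2 probe sets did not share a direction. MmugDNA.6900.1.S1_s_at, whose suffix marks probes that can match several transcripts, read 6.55, 6.66 and 6.56 in A46 and 6.27, 6.29 and 6.39 in M1. Its arrays did not overlap, and its difference was -0.27 (SE 0.08, adjusted p = 0.0495). The brightest DRD2 probe set gave -0.05 (SE 0.13, adjusted p = 0.868) and the other 0.07 (SE 0.11, adjusted p = 0.774). The single call was lost without animal 1 (adjusted p = 0.124), without animal 2 (0.513), without the animal term (0.103), with no intensity filter (0.0781), with arrays centred on their medians (0.066), with quantile normalisation (0.0562), and in the left (0.185) and right (0.104) hemispheres alone. DRD4 read 7.01, 7.13 and 7.13 in A46 and 7.0, 6.96 and 6.99 in M1, a difference of -0.11 (adjusted p = 0.357).

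The premotor areas were compared with prefrontal cortex, with M1 and with each other. In PMd minus A46, 2 of 55 probe sets were called (3.64%), against 1.95% of all, and in PMv minus A46, 3 (5.45%), against 1.23%. In M1 minus the premotor mean, 3 were called (5.45%), against 2.16% of all. All of these belong to OPRL1, OPRM1 and OPRK1. PMd and PMv were not told apart by any receptor probe set in limma, with 2 at an unadjusted p under 0.05, the HTR3A and OPRK1 probe sets described above, and 0.00758% of all probe sets were called. Area means ran from A46 at the top to M1 at the bottom for OPRL1, HRH1, CHRM1, CHRM3, SSTR1, SSTR3, and the called probe sets of NPY5R and DRD2. They ran from M1 at the top to A46 at the bottom for OPRM1 and ADRA1A.

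Left and right hemispheres were compared over 12 animal-by-area pairs, which come from 3 animals, so the p-values rest on more units than animals. No receptor probe set was called by limma, with 4 at an unadjusted p under 0.05, and 0.0% of all probe sets were. A fit on per-animal means called no receptor probe set either, but it called 38 of all 26383 probe sets, 1 higher and 37 lower on the left. OPRL1 had the smallest p, with a left minus right difference of -0.14 (SE 0.04, unadjusted p = 0.00395, adjusted p = 0.469) and -0.03, -0.18 and -0.2 in the animals. OPRM1 gave 0.12 (SE 0.05, adjusted p = 0.561), DRD2 by its brightest probe set 0.13 (SE 0.06, adjusted p = 0.621) and CHRNG -0.11 (SE 0.04, adjusted p = 0.534).

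Beyond the receptors, the machinery of the same transmitters was described by list in M1 minus A46. Each listed gene is counted by its brightest probe set, and the share over all genes counted so was not computed. Of 11 ligands, enzymes and transporters tested, 3 were higher and 2 lower (45.5% called, against 12.9% of all probe sets), with a median of -0.04. BCHE, butyrylcholinesterase, which can split acetylcholine, read 9.16, 9.16 and 9.28 in A46 and 9.77, 10.11 and 9.81 in M1, a difference of 0.7 (SE 0.09, adjusted p = 0.000193). ACHE, the main enzyme that does so, gave 0.13 (adjusted p = 0.327). SLC29A4, a low-affinity monoamine transporter, read 7.96, 7.97 and 7.96 in A46 and 7.68, 7.5 and 7.48 in M1, a difference of -0.41 (SE 0.07, adjusted p = 0.00267). HNMT, which inactivates histamine, was lower in M1 by the same test, with a difference of -0.29 (SE 0.08, adjusted p = 0.0419).

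Of 37 G proteins, effectors and regulators tested, 3 were higher and 3 lower (16.2% called, near the 12.9% of all probe sets), with a median of -0.02. RGS10, which speeds the shut-off of Gi, rose by 0.38 (SE 0.08, adjusted p = 0.01), PRKAR1A, a regulatory subunit of protein kinase A, by 0.41 (SE 0.09, adjusted p = 0.0103) and PDE4B, which degrades cyclic AMP, by 0.22 (SE 0.06, adjusted p = 0.034). KCNJ9, a channel opened by Gi-coupled receptors, fell by 0.32 (SE 0.09, adjusted p = 0.0341), and RGS7 and RGS6 fell by 0.32 and 0.38. RGS2 gave 0.12 (adjusted p = 0.35). Of 5 nicotinic receptor partners 1 was called (20.0%): RIC3, a chaperone of receptor assembly, rose by 0.49 (SE 0.11, adjusted p = 0.0086), and LYNX1, a brake on nicotinic receptors, gave -0.12 (adjusted p = 0.392). The list's median was 0.02, with VSNL1 at 0.04 and LYPD6 at -0.07.

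Of 17 other neuropeptide and modulator receptors tested, CCKBR was the only one called (5.88%, against 12.9% of all probe sets), with a list median of -0.02. This receptor for cholecystokinin read 9.07, 9.08 and 8.88 in A46 and 8.76, 8.64 and 8.41 in M1, a difference of -0.41 (SE 0.06, adjusted p = 0.00115). The cannabinoid receptor CNR1 gave -0.2 (adjusted p = 0.194), TACR1 -0.02 and ADCYAP1R1 0.1. Of the 13 genes called in these 4 lists, 5 were called without animal 1, 1 (BCHE) without animal 2, 13 without animal 3 and 2 without the animal term. With animal 2 left out, adjusted p was 0.126 for CCKBR, 0.14 for SLC29A4, 0.381 for RGS10 and 0.172 for RIC3.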

How the data were processed

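The deposited data are linear intensity values, 1 per probe set and array, made with RMA (robust multi-array average) according to the names listed in the submitters' processing notes. Its version is not given in the sources used here, nor are the arrays processed together or the genome build. RMA gives all arrays a common distribution, so a difference is relative to the rest of the array. Median intensity was 47.9 to 51.7 per array, and pairs of arrays correlated at 0.978 or more (at most 0.997). An array has no read depth, so precision depends on the number of animals.

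Area, hemisphere and animal come from the sample titles. Of 52865 probe sets, 99 controls were dropped, leaving 52766, of which 24956 name 1 gene, 361 several and 27449 none in GEO's platform annotation. By Entrez ID, 78 of the 84 receptor probe sets had a current gene entry, with 0 changed symbols. Values were put on the log2 scale (0 fell below the floor of 1). The filter kept 26383 probe sets at or above the median of means (5.62, intensity 49.3). The probe set with the highest mean represents its gene.

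Hemispheres were averaged, and limma 3.58.1 in R 4.3.3 (lmFit, trended eBayes) was run on the 12 means with terms for area and animal (residual degrees of freedom 6, prior 6.98). The animal is a block because every area comes from the same 3 animals. Once area means were taken out, means of 1 animal correlated at 0.207 to 0.85 (18 pairs) and means of different animals at -0.561 to 0.065 (36 pairs). Taking out area means ties the 3 animals of an area together, so these ranges are not independent of each other. Left minus right used the 24 arrays with the animal-by-area pair as block. Tests were two-sided and the fit was tested on simulated data. Every adjusted p is limma's.

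The members and gene lists were chosen with earlier results of these data known. Given in full are genes called by their brightest probe set in any comparison and, in a transmitter class with none, the probe set with the smallest F test p. Each list adds up to 4 genes with the smallest F test p. Alternatives were no animal term, each animal left out, no filter or one at the 75th percentile, median centring, quantile normalisation, no trend, duplicateCorrelation on 24 arrays, 1 hemisphere at a time, log2(value + 16) and a gene's other probe sets.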

Additional observations from a re-analysis of the deposited data

Results flagged for a closer look

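In 1 of 56 groups of 6 arrays tested (14 receptor probe sets in 4 areas), 1 array stood apart from the others. For CHRNB1 in PMd, the left hemisphere of animal 1 had a log2 intensity of 7.22, and the next highest array had 7.0. The gap was 0.632 of the whole range. Chance alone is expected to mark about 5% of such groups.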

How the results depend on the processing

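Of 226 values computed for 17 single-gene results under the alternatives, 154 kept their direction and side of the threshold, 71 kept the direction but missed the threshold, and 1 reversed: DRD2 gave 0.07 by another probe set. With the replicate block (animal) left out, the receptor probe sets called numbered 2 for any area difference (7 with it), 6 for M1 minus A46 (15), 0 for PMd minus A46 (2), 0 for PMv minus A46 (3) and 1 for M1 minus premotor (3). All 6 were among the 15. Over all 26383 probe sets the counts without the block were 288, 1056, 8, 1 and 11, against 1723, 3391, 515, 324 and 570. Leaving out 1 animal at a time gave 2 to 17 for any area difference, 2 to 16 for M1 minus A46, 0 to 8 for PMd minus A46, 0 to 18 for PMv minus A46, 0 to 6 for M1 minus premotor and 0 to 1 for PMd minus PMv, the highest in each case without animal 3, the female. Over all probe sets these ranges were 129 to 7754, 403 to 5410, 12 to 3055, 1 to 7010, 25 to 1370 and 0 to 1398. A filter at the 75th percentile gave 6 for M1 minus A46, with fewer receptor probe sets tested. The called probe sets missing from these 6 had means below that filter's 7.16 and were not tested there. Left hemispheres alone gave 3 for any area difference, 5 for M1 minus A46 and 0 for M1 minus premotor. The 24 arrays with duplicateCorrelation gave 13 for any area difference and 4 for PMd minus A46. Quantile normalisation gave 4 for PMd minus A46, and median centring 1 for M1 minus premotor. For each of these filter, hemisphere, duplicateCorrelation, quantile and centring results, the count over all probe sets shifted in the same direction as the receptor count. With the filter at the 75th percentile, fewer of all probe sets were tested too. There 2746 of 13192 were called in M1 minus A46, a larger share than 3391 of 26383, so only the count fell. The shifts were thus not confined to the receptors, and their cause was not tested. The receptor count for left minus right stayed at 0 under the 6 alternatives run. With 3 animals, differences near 0.25 sit at the limit of what could be called, and probe sets close to the filter are near the array's dim end.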
